A study of Mus musculus with 20 samples.

Results

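Inflammasomes are cytosolic protein complexes through which myeloid cells answer microbes and damage. The 9 genes described here encode their core parts in the mouse: the sensors Nlrp3, Nlrc4, Nlrp1b, Aim2 and Mefv, the adaptor Pycard (ASC), the caspases Casp1 and Casp4 (the mouse caspase-11), and the pore protein Gsdmd. They were chosen by gene symbol, with no measured value in the rule, but with earlier results of these data known. All 9 of them were among the 24421 gene symbols of the count table. The cells were bone marrow-derived dendritic cells (BMDCs) of 5 mice, A to E, grown for 8 days in GM-CSF at 40 ng/mL. For every mouse, cells received either DMSO, given as 5% by the labels, or iBET, which is I-BET151 at 3.3 μM, together with either ovalbumin (Ova) or ovalbumin bound in immune complexes (IC) for 4 hours. This gave 4 groups of 5 libraries, named by treatment and stimulus (DMSO or iBET, Ova or IC), each with 1 library of every mouse. The complexes were made with rabbit antibody to ovalbumin. The labels name no genotype, strain or age. The study's methods list wild-type C57BL/6, fluorescent reporter and Fcgr2b-deficient mice of both sexes, and do not say which gave the sequenced cells. The methods place iBET before the stimulation and the labels place both at the same time, and neither gives the DMSO content of the iBET cultures. GM-CSF cultures are known to hold macrophage-like cells beside dendritic cells. The labels say that cells were sorted into lysis buffer, without a gate, and the methods that they were lysed in culture.

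An inflammasome forms when a sensor meets its trigger. NLRP3 responds to ion fluxes and membrane damage, and NLRC4 to bacterial flagellin and secretion proteins that NAIP receptors bind. NLRP1B responds, in some of its mouse alleles only, to cleavage by bacterial proteases such as anthrax lethal factor. AIM2 responds to DNA in the cytosol, and pyrin, the product of Mefv, to certain bacterial toxins. Most sensors recruit ASC, which gathers caspase-1, and caspase-1 then cuts pro-IL-1β, pro-IL-18 and gasdermin D. Caspase-11 binds cytosolic lipopolysaccharide and cuts gasdermin D by itself. BET proteins, which iBET displaces from chromatin, read acetylated histones and aid transcription.

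Libraries held 16447491 to 29245150 counts. Of all genes 12465 passed a filter on low counts and were tested in 1 fit of the 20 libraries with edgeR's quasi-likelihood test, with p values adjusted over all of them by the Benjamini-Hochberg method and a threshold of 0.05. Levels are given as counts scaled to library size with TMM factors (CPM), with the SD over 5 mice. All 9 inflammasome genes were tested, but Mefv passed the filter through its DMSO libraries, since 0 of the 10 iBET libraries reached the filter's minimum of 0.459 CPM. Counts of inflammasome genes are therefore also given without it. On the second principal component mice A and B lay apart from mice C, D and E, for which no batch is named, so values within these sets, a split made after seeing the data, stand beside results that differ between them.

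In DMSO Ova cells Pycard, Gsdmd and Casp1 were the most abundant of these transcripts per length. Pycard stood at 34.8 ± 1.70 CPM per kb of exon (SD, n = 5 mice), Gsdmd at 28.2 ± 2.02 and Casp1 at 24.7 ± 3.00 CPM per kb. The ranges of Gsdmd and Casp1 over the mice overlapped, and that of Pycard lay above both. Among the sensors Nlrp3 came first with 14.8 ± 1.76 CPM per kb, followed without overlap by Aim2 with 9.86 ± 0.460 CPM per kb. Nlrc4 had 2.82 ± 0.224, Casp4 2.29 ± 0.429 and Nlrp1b 1.71 ± 0.396 CPM per kb, and the ranges of these neighbours overlapped. Mefv was lowest, at 0.190 ± 0.0936 CPM per kb. Lengths are those of the merged exons of each gene in GENCODE M21 on GRCm38, so they include exons that these cells may not use. For Pycard they come to 3800 bases, nearly the whole span of the gene, and for Casp1 to 1497 bases. The level of Pycard per kb may thus be understated.

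The first question was what BET inhibition did to the inflammasome genes in cells given Ova. With iBET 8 of the 9 genes fell and 0 rose, and 7 of 8 fell when Mefv was left out. Over all genes tested 28.9% fell and 27.7% rose in this comparison. The median log2 fold change of the 9 genes was -1.24 (-1.11 without Mefv), against -0.0029 for all genes tested. The falls ranged from 1.35-fold in Casp4 to 10.4-fold in Nlrp3 among the genes other than Mefv, and Aim2 was the one gene that did not pass the test. In bulk RNA, fewer cells of a type and less RNA per cell cannot be told apart.

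Nlrp3 (chromosome 11, 59541568 to 59566956, plus strand, GRCm38) fell most among the genes other than Mefv. Its level in mice A to E was 63.4, 61.2, 69.1, 50.05 and 57.0 CPM in DMSO Ova cells and 6.95, 6.51, 5.66, 3.92 and 5.90 CPM in iBET Ova cells. Every iBET library lay far under every DMSO library. This was a log2 fold change of -3.38 (SE 0.187, edgeR adjusted p = 1.61e-11), a 10.4-fold lower level. With IC the libraries of mice A to E held 60.6, 64.6, 53.7, 39.7 and 47.1 CPM with DMSO and 7.10, 8.14, 7.76, 4.15 and 4.95 CPM with iBET, again without overlap, and the log2 fold change was -3.04 (SE 0.184, edgeR adjusted p = 5.51e-11).

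Nlrp1b (chromosome 11, 71153102 to 71230733, minus strand) fell next among the sensors. DMSO Ova libraries held 7.66, 14.6, 10.2, 10.3 and 11.2 CPM in mice A to E, and iBET Ova libraries 1.94, 2.28, 1.34, 1.89 and 2.34 CPM. All iBET values lay under all DMSO values, with a log2 fold change of -2.45 (SE 0.193, edgeR adjusted p = 2.27e-09). With IC the level after iBET was 1.45 ± 0.300 CPM, and the change against DMSO was -2.16 (edgeR adjusted p = 1.8e-08). Nlrp1b has a close paralog, Nlrp1a, and the treatment of reads that match both is not given in the sources used here, so the split of counts between them is uncertain. Nlrc4 (chromosome 17, 74425438 to 74459142, minus strand) fell less. In mice A to E it stood at 14.3, 15.1, 12.6, 12.7 and 13.1 CPM in DMSO Ova cells and at 6.95, 6.24, 5.13, 5.49 and 4.85 CPM in iBET Ova cells, a change of -1.24 (SE 0.132, edgeR adjusted p = 1.42e-07). With IC the levels were 15.5 ± 2.58 and 5.95 ± 1.08 CPM, a change of -1.37 (SE 0.131, edgeR adjusted p = 3.06e-08). Its groups did not overlap in either comparison.

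Mefv (chromosome 16, 3707218 to 3718097, minus strand) was near the limit of detection throughout. Mice A to E had 6, 7, 15, 29 and 14 reads in the DMSO Ova libraries and 2, 0, 0, 2 and 0 in the iBET Ova libraries. The iBET Ova group thus rested on 4 reads in all, with 3 of its 5 libraries at 0. A count of 0 allows up to 3 reads, which is 0.105 to 0.178 CPM over the depths of all 20 libraries. This is a limit for counting error only. The log2 fold change was -3.87 with Ova (95% interval -5.11 to -2.63, edgeR adjusted p = 1.48e-05) and -2.25 with IC (95% interval -3.25 to -1.26, edgeR adjusted p = 0.000467). When the filter was set on the 10 libraries of either comparison alone, Mefv did not pass it and was not tested.

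Aim2 (chromosome 1, 173350879 to 173466040, plus strand) did not follow the other sensors. Mice A to E had 35.9, 34.2, 33.2, 32.8 and 36.5 CPM in DMSO Ova cells and 38.8, 46.5, 35.4, 33.0 and 36.6 CPM in iBET Ova cells, and these groups overlapped. The log2 fold change was 0.14 with Ova (95% interval -0.03 to 0.31, edgeR adjusted p = 0.152) and 0.01 with IC (95% interval -0.16 to 0.18, edgeR adjusted p = 0.918). Its IC libraries held 32.0, 37.4, 34.9, 34.0 and 32.1 CPM with DMSO and 37.5, 37.4, 33.7, 31.1 and 31.9 CPM with iBET, and these groups overlapped as well.

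**Figure D1:**
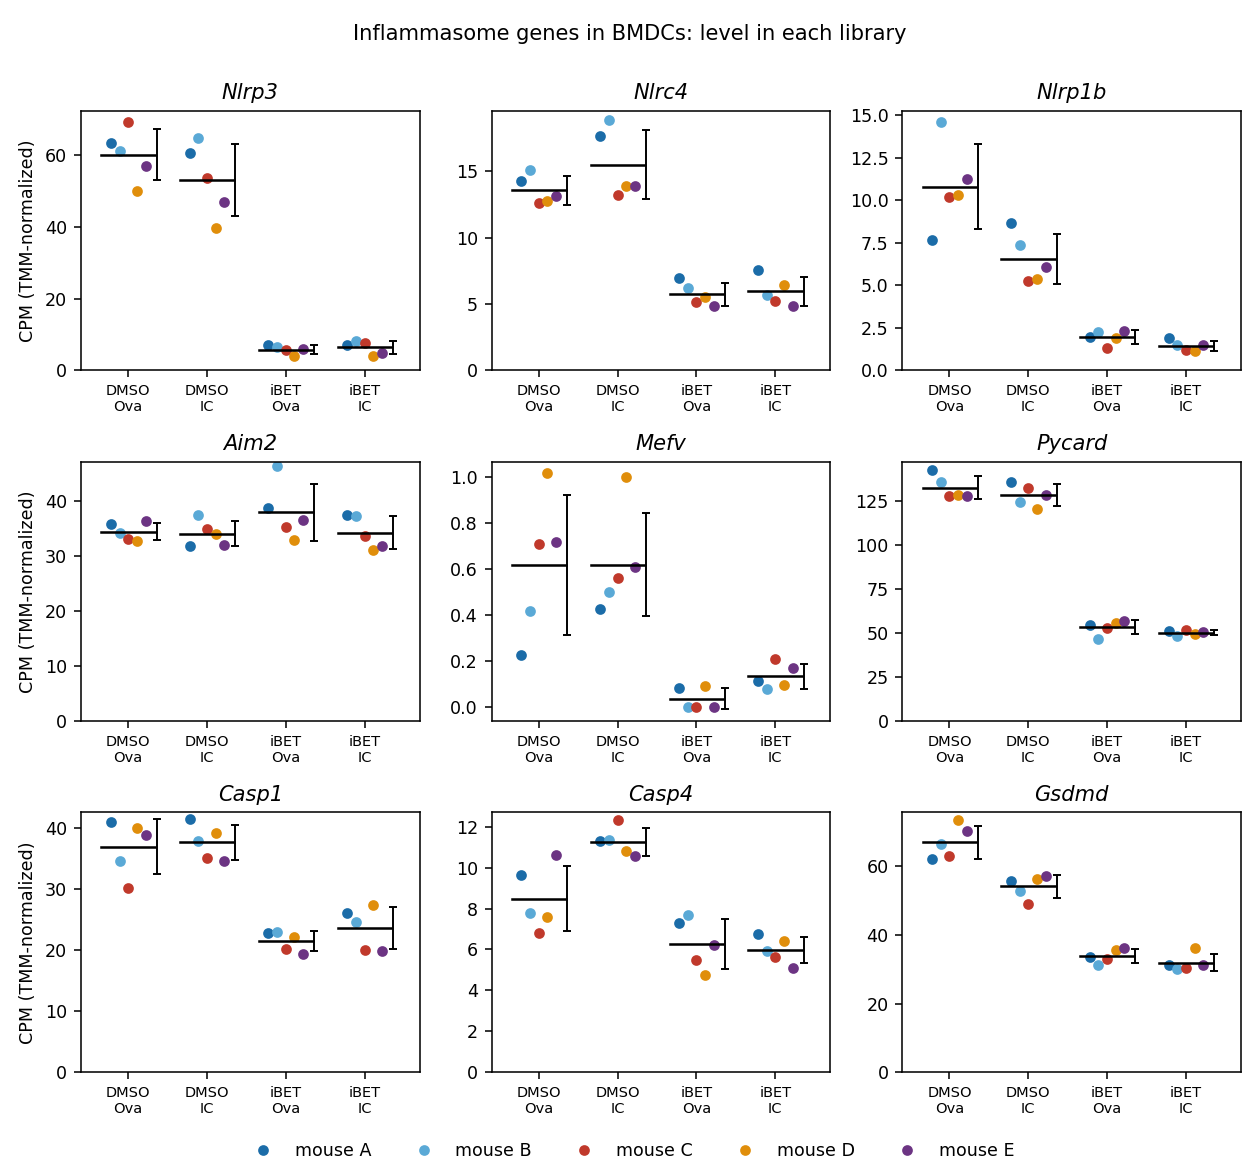
Level of each inflammasome gene in the 20 libraries, as TMM-normalized CPM on linear axes; each point is 1 library, coloured by mouse, with the group mean as a bar and the SD over 5 mice as an error bar. Nlrp3, Pycard and Gsdmd show 2 separate bands, DMSO above iBET, whereas the Aim2 values of the 4 groups share 1 band between 31.1 and 46.5 CPM.

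Pycard (chromosome 7, 127989708 to 127993867, minus strand), which encodes the adaptor ASC that links sensors to caspase-1, differed little between mice. Its level in mice A to E was 142, 135, 128, 128 and 128 CPM in DMSO Ova cells against 54.4, 46.6, 52.6, 55.8 and 56.9 CPM in iBET Ova cells. The lowest DMSO library stood at more than 2 times the highest iBET library. On the log2 scale the difference was -1.31 (SE 0.0567, edgeR adjusted p = 4.49e-13). IC cells held 136, 124, 132, 120.0 and 128 CPM with DMSO and 51.3, 48.5, 51.6, 49.5 and 50.4 CPM with iBET, which was a log2 difference of -1.35 (SE 0.0568, edgeR adjusted p = 3e-13). Exons of Pycard overlap an uncharacterised gene on the other strand, Gm45205, over 485 bases, and the strand setting of the counts is not given in the sources used here.

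Among the caspases, Casp1, the protease of the canonical inflammasome, fell by 0.78 on the log2 scale with Ova (SE 0.0995, edgeR adjusted p = 1.52e-06). DMSO Ova cells of mice A to E held 41.0, 34.6, 30.2, 40.0 and 38.9 CPM and iBET Ova cells 22.8, 23.0, 20.1, 22.2 and 19.3 CPM, without overlap. IC cells held 41.5, 37.9, 35.1, 39.3 and 34.6 CPM with DMSO and 26.1, 24.6, 20.1, 27.3 and 19.9 CPM with iBET, also without overlap, and Casp1 fell by 0.67 (edgeR adjusted p = 9.11e-06). Casp4 lies beside it (chromosome 9, 5298517 to 5307265, plus strand for Casp1 and 5308828 to 5336783 for Casp4, with 1562 bases between them) and encodes the sensor protease of the non-canonical pathway. Its Ova groups overlapped, at 9.66, 7.77, 6.78, 7.60 and 10.6 CPM with DMSO and 7.27, 7.70, 5.48, 4.73 and 6.19 CPM with iBET in mice A to E. The Ova change of -0.43 (edgeR adjusted p = 0.00905) was lost without mouse E (-0.34, adjusted p = 0.064) and within mice A and B (-0.24, adjusted p = 0.235), and held within mice C, D and E (-0.55, adjusted p = 0.0118). With IC its groups did not overlap, at 11.3 ± 0.674 CPM after DMSO and 5.96 ± 0.633 CPM after iBET (log2 fold change -0.92, edgeR adjusted p = 7.64e-06). Casp12, the next gene on that chromosome, had at most 1 read in a library and was not tested.

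Gsdmd (chromosome 15, 75862327 to 75867408, plus strand), whose cut product forms the membrane pores of pyroptosis, fell 1.98-fold with Ova. In mice A to E it stood at 62.1, 66.6, 63.2, 73.5 and 70.2 CPM with DMSO and at 33.5, 31.3, 33.0, 35.6 and 36.1 CPM with iBET. The groups were far apart, with a difference of -0.98 on the log2 scale (SE 0.0659, edgeR adjusted p = 2.27e-10). IC cells after iBET held 31.3, 30.1, 30.5, 36.2 and 31.2 CPM, all under the DMSO IC libraries given further on, with a difference of -0.77 (SE 0.0658, edgeR adjusted p = 7.08e-09).

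The same question was asked of cells given IC, which shares no library with the Ova comparison but comes from the same mice. Again 8 of the 9 genes fell and 0 rose (7 of 8 without Mefv), while 29.0% of all genes tested fell and 27.1% rose. The median log2 fold change was -1.35 (-1.13 without Mefv), against -0.0054 over all genes tested. Of all 9 genes, 5 fell by at least 1 on the log2 scale with Ova, where 10.0% of all genes tested did, and the same 5 with IC, where 9.68% did. These were Nlrp3, Nlrc4, Nlrp1b, Pycard and Mefv, or 4 of 8 without Mefv. In mice A and B alone 7 genes fell with Ova and 8 with IC, where 22.5% and 21.5% of all genes tested fell. In the other 3 mice 8 fell in both, where 27.8% and 28.8% of all genes fell.

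**Figure D2:**
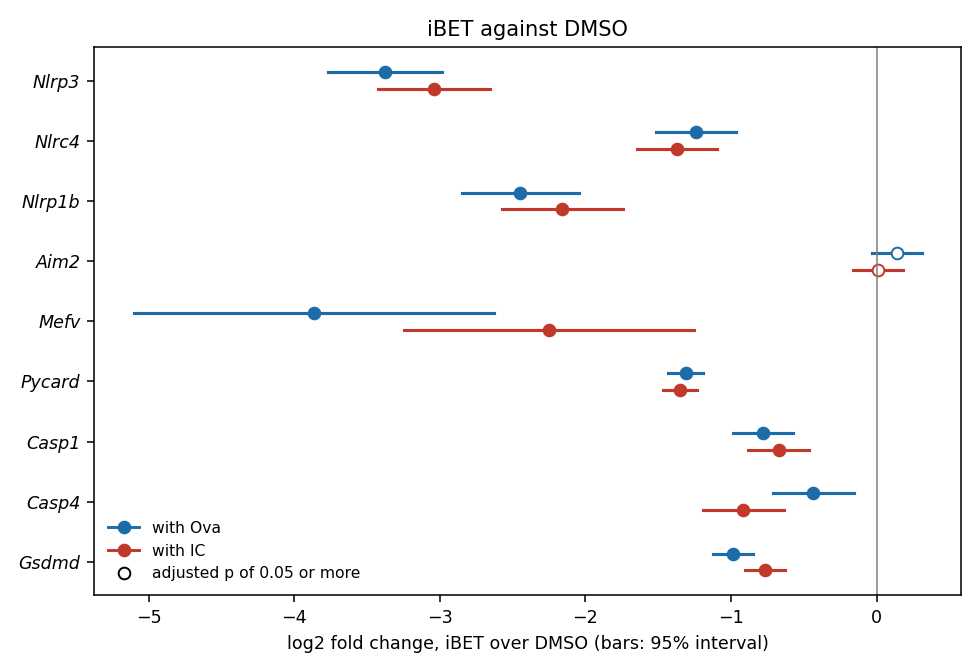
Log2 fold change of iBET over DMSO for each gene, with Ova in blue and with IC in red; bars are 95% intervals of the edgeR fit and open circles are genes at an adjusted p of 0.05 or more. All genes but Aim2 lie left of 0 in both stimulations, with the Ova values of Mefv and Nlrp3 furthest left and the Ova value of Casp4 closest to 0 among the filled circles.

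These unequal falls changed the make-up of the sensor transcripts and the order of the 9 genes. As a share of the summed CPM per kb of the 5 sensors, Nlrp3 made up 50.3% ± 3.21 in DMSO Ova cells and 10.3% ± 1.40 in iBET Ova cells (SD, n = 5 mice), and Aim2 33.6% ± 2.20 and 78.7% ± 1.59. With IC the share of Nlrp3 was 47.7% ± 3.79 with DMSO and 12.1% ± 2.48 with iBET, and that of Aim2 was 36.0% ± 3.82 and 76.2% ± 1.71. In iBET Ova cells Casp1, Gsdmd and Pycard reached a like level per length (14.4 ± 1.12, 14.3 ± 0.828 and 14.0 ± 1.07 CPM per kb), with Aim2 just under them (10.9 ± 1.48 CPM per kb) and overlapping ranges between each of these neighbours. This likeness depends on the lengths used, above all on the merged exon length of Pycard. Nlrp3, 4th in DMSO cells, stood 6th in both iBET groups, after Casp4, and its range overlapped those of Casp4 and Nlrc4.

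**Figure D3:**
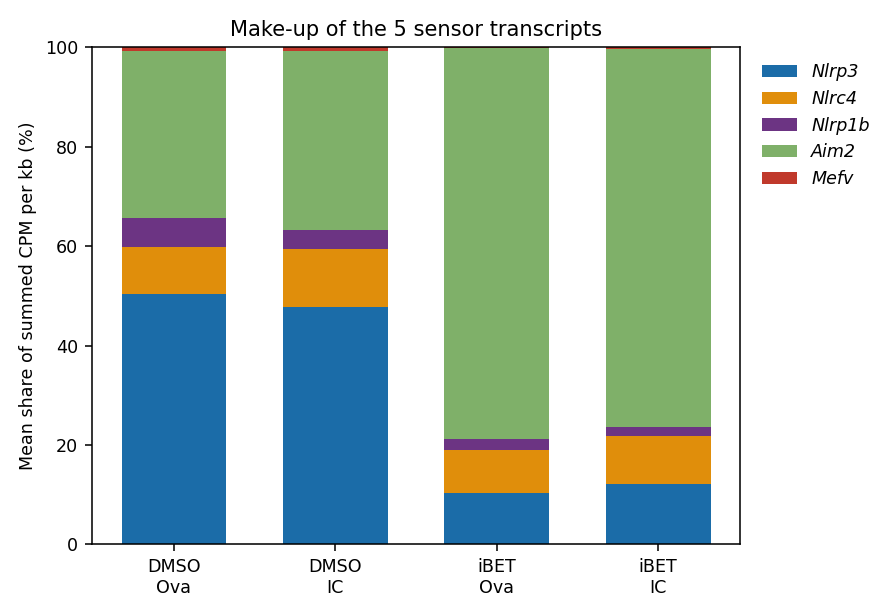
Mean share of each sensor in the summed CPM per kb of exon of the 5 sensors, in percent, over 5 mice per group. Nlrp3 is the widest segment in both DMSO groups and Aim2 in both iBET groups, while the make-up is close between Ova and IC within each treatment.

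The second question was what Fcγ receptor engagement by IC did to these genes. In DMSO cells 1 of the 9 genes rose with IC, where 9.59% of all genes tested rose, and 2 fell, where 10.7% of all genes did. For a group of 9 genes these counts lie near the background. The DMSO Ova libraries are the ones used above. The median log2 fold change of the 9 genes was -0.02, against -0.024 over all genes tested. Gsdmd fell in 5 of 5 mice, from the Ova values given with its iBET fall to 55.7, 52.9, 49.0, 56.3 and 57.2 CPM in mice A to E. The highest IC library lay under the lowest Ova library, and the change was -0.31 on the log2 scale (SE 0.0650, edgeR adjusted p = 0.00249). Nlrp1b fell in 4 of 5 mice and rose in mouse A, with 8.64, 7.40, 5.23, 5.37 and 6.09 CPM in the IC libraries of mice A to E (log2 fold change -0.72, edgeR adjusted p = 0.00709). Its groups overlapped.

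Casp4 was the gene that rose. Its IC libraries held 11.3, 11.3, 12.3, 10.8 and 10.6 CPM in mice A to E, which is close to the Ova level in mouse E and above it in the other 4 mice. The log2 fold change was 0.41 (SE 0.130, edgeR adjusted p = 0.0323). The call was lost when mouse B, C or D was left out, with log2 fold changes of 0.38, 0.31 and 0.38 and adjusted p values of 0.0904, 0.191 and 0.0928, when the fit held only the 10 libraries compared (adjusted p = 0.0506), and when scaling used library size only (0.30, adjusted p = 0.0967). Within mice A and B, where 4.00% of all genes tested passed the edgeR threshold, 0 of these 3 genes did. Their log2 fold changes were -0.25 for Gsdmd, -0.46 for Nlrp1b and 0.36 for Casp4. Within mice C, D and E these were -0.33, -0.90 and 0.45, and all 3 passed, where 27.2% of all genes tested did. Nlrp3 had 60.1 ± 7.13 CPM with Ova and 53.1 ± 10.1 CPM with IC in DMSO cells, and was lower with IC in 4 of 5 mice. Its log2 fold change was -0.18 (95% interval -0.52 to 0.16, edgeR adjusted p = 0.49, and 0.0507 with the mouse as a block in the fit). The 95% intervals of the log2 fold change were -0.16 to 0.07 for Pycard, -0.18 to 0.23 for Casp1, -0.19 to 0.15 for Aim2 and -0.07 to 0.45 for Nlrc4. With the mouse as a block the edgeR adjusted p was 0.479 for Pycard, 0.751 for Casp1 and 0.838 for Aim2. Nlrc4 was higher with IC in 5 of 5 mice without passing the test (edgeR adjusted p = 0.312, and 0.0648 with the block).

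In iBET cells 0 of the 9 genes passed the threshold for IC against Ova, where 5.19% of all genes tested rose and 6.63% fell. The gene at an unadjusted edgeR p under 0.05 was Mefv, of which IC libraries held 3, 2, 4, 2 and 3 reads (adjusted p = 0.177), and DESeq2 also called 0. On the deposited normalized values limma called 1 gene, Mefv (1.29, limma adjusted p = 0.0494). Scaling by library size only called 3 genes lower, Aim2, Pycard and Gsdmd. That scaling moved the median of all genes by -0.11 in this comparison and by a like amount in DMSO cells, where it called Pycard lower. Gsdmd, which had fallen with IC in DMSO cells, had a log2 fold change of -0.09 here (95% interval -0.23 to 0.05), and Casp4 one of -0.07 (95% interval -0.35 to 0.21).

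**Figure D4:**
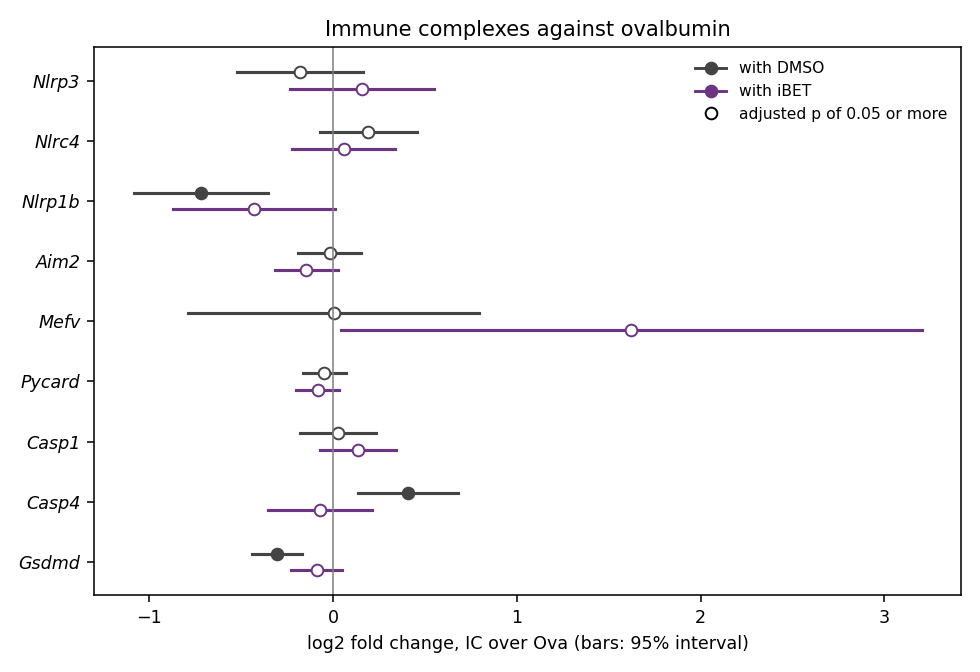
Log2 fold change of IC over Ova for each gene, in DMSO cells in grey and in iBET cells in purple, with 95% intervals of the edgeR fit; filled circles passed an adjusted p of 0.05. Filled circles are Nlrp1b and Gsdmd left of 0 and Casp4 right of 0, all in DMSO cells, and the interval of Mefv in iBET cells is the widest.

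Whether the iBET effect differed between IC and Ova was tested with the interaction. Of all genes tested 0.0401% passed the threshold, and 0 of the 9 inflammasome genes did with edgeR, DESeq2 or limma. At an unadjusted edgeR p under 0.05 there were 2. One was Casp4, whose iBET minus DMSO difference was lower with IC than with Ova in 5 of 5 mice. Its interaction was -0.48 on the log2 scale (SE 0.188, edgeR adjusted p = 0.982, and 0.256 with the mouse as a block). The other was Gsdmd, whose difference was higher with IC in 5 of 5 mice. Its interaction was 0.22 (SE 0.0926, edgeR adjusted p = 0.9999, and 0.165 with the mouse as a block). So the IC responses of Gsdmd, Nlrp1b and Casp4 were not shown to differ between DMSO and iBET cells.

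In some of the genes the same mouse was lowest or highest in several groups. Nlrp3 was lowest in mouse D in 4 of 4 groups, and Aim2 in 3 of 4. Casp1 was lowest in mouse E in 3 of 4. Mefv was highest in mouse D in 3 of 4 groups, but in iBET Ova cells mice A and D held 2 reads each. In Nlrc4, Nlrp1b, Pycard, Casp4 and Gsdmd no mouse stood at the same end in more than 2 of 4 groups. The repeats were named after the values were seen, and how often chance gives them was not tested. The SD between mice was 2.54% to 7.65% of the group mean for Pycard, 5.80% to 7.76% for Gsdmd and 11.9% to 27.6% for Nlrp3. Despite this spread, the fall of Nlrp3 with Ova was close in the 5 mice, with differences of -3.64 to -3.17 on the log2 CPM scale.

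RefSeq promoter windows, from 250 bases before to 50 bases after a gene's start on GRCm38.p6, were found for 8 of the 9 genes, in 11 windows, and not for Gsdmd. They were searched on both strands for 5 short motifs, namely an NF-κB-like core (GGGANTTTC), paired interferon sites (GAAANNGAA), a GAS element (TTCNNNGAA), a PU.1 core (AGAGGAA) and a TATA box (TATAAA), which do not contain one another. The PU.1 core was in 3 of the 11 windows, 1 each of Nlrp3, Nlrp1b and Casp1, and in 10.4% of all 32851 windows. The NF-κB-like core was in 1 window, that of Aim2, and in 1.11% of all windows. This counts only the spelling GGGANTTTC. Both Casp4 windows hold GGGGATTTCC, a similar run that this spelling does not count, so other genes may hold NF-κB-like runs of other spellings. Paired interferon sites, GAS elements and TATA boxes were in 0 of the 11 windows and in 8.56%, 8.30% and 13.6% of all windows. The 250 bases upstream of the start are shown 5′ to 3′ on the gene's strand for the 4 windows with a match, 3 of genes that fell with iBET and the 1 of the gene that did not, with the match in capitals. A match is a run of letters, not a bound site.
Nlrp3, chr11:59542436-59542685, plus strand: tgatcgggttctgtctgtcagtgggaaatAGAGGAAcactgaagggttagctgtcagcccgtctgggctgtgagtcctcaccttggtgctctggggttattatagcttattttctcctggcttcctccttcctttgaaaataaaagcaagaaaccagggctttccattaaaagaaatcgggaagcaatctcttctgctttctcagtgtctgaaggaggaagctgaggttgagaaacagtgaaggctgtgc
Nlrp1b, chr11:71230734-71230983, minus strand: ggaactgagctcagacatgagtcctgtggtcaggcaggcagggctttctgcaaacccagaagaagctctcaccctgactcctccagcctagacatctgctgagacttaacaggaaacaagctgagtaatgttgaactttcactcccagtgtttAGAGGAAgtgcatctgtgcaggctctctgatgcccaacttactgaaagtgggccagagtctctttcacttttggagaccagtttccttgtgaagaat
Casp1, chr9:5298267-5298516, plus strand: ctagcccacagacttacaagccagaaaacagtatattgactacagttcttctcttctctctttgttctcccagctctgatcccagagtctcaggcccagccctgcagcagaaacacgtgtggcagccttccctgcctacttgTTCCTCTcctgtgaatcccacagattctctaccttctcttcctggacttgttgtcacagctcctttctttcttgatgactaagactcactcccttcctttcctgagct
Aim2, chr1:173420354-173420603, plus strand: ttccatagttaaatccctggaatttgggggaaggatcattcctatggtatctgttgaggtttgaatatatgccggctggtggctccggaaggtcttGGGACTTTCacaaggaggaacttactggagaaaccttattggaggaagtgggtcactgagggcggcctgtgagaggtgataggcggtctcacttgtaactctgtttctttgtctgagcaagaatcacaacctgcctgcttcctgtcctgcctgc

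The Nlrp3 match lay 215 to 221 bases before the start, that of Nlrp1b 91 to 97 bases, that of Casp1 102 to 108 bases on the other strand, and that of Aim2 146 to 154 bases. Nlrp3 and Nlrp1b each had a further window, at another start, without a match to any of the motifs.

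Around these 9 genes, 6 lists of pathway genes were followed, also chosen with earlier results of these data known. Over all genes tested 28.9% fell and 27.7% rose with iBET in Ova cells. Of 11 tested other sensors 1 rose and 6 fell with iBET in Ova cells (median log2 fold change -0.55). The gene that rose was Naip5, which binds flagellin for NLRC4, at 58.4 ± 6.92 CPM in DMSO Ova and 77.4 ± 8.82 CPM in iBET Ova cells (log2 fold change 0.41, edgeR adjusted p = 0.00207). Naip1, Naip2 and Naip6, which bind needle and rod proteins of secretion systems or flagellin, had log2 fold changes of 0.08, 0.09 and 0.06 with edgeR adjusted p values of 0.684, 0.592 and 0.749. The Naip genes are close copies, and reads may be split between them. None of these 4 passed the edgeR test as lower, whereas Nlrc4 did. Nlrp1a, the paralog of Nlrp1b, fell from 15.9 ± 2.23 to 2.50 ± 0.400 CPM (log2 fold change -2.67, edgeR adjusted p = 1.14e-12). Zbp1, a sensor of Z-form nucleic acids, fell by 1.24 and Nod2, a sensor of bacterial muramyl dipeptide, by 0.96 on the log2 scale.

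Of 11 activating and licensing factors 1 rose and 8 fell in Ova cells (median log2 fold change -1.49). The guanylate binding proteins Gbp3 and Gbp5, which expose bacterial products to caspase-11 and AIM2, fell, with log2 fold changes of -2.75 and -2.51 (edgeR adjusted p = 4.17e-09 and 0.000318). Gbp5 had 12.6 to 54.9 CPM in DMSO libraries and 2.49 to 10.1 CPM in iBET libraries. Pstpip1, a partner of pyrin, fell by 1.94. The factor that rose was Txnip, a thioredoxin-binding protein linked to NLRP3 activation, which is named here because of its value. Its mean was 1127 CPM with DMSO and 2919.7 CPM with iBET (log2 fold change 1.37, edgeR adjusted p = 3.14e-09). Nek7, the kinase that NLRP3 needs to assemble, had 177 ± 16.9 CPM in DMSO Ova and 171 ± 11.9 CPM in iBET Ova cells (log2 fold change -0.05, 95% interval -0.22 to 0.11).

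Genes that restrain inflammasomes also fell, 4 of 5 tested with Ova and 0 rising (median log2 fold change -0.66). Tnfaip3, the ubiquitin-editing enzyme A20, fell by 1.75 on the log2 scale, Dpp9, which holds NLRP1 inactive, by 0.82, and Trim30a by 0.27. The Trim30a call was lost without mouse D (edgeR adjusted p = 0.0821), without mouse E (0.0876) and within mice A and B (0.48). Of the 3 cytokine outputs 2 fell with iBET in Ova cells and the same number with IC. Il1b, whose product is a substrate of caspase-1, stood at 9.98 ± 3.64 CPM in DMSO Ova, 27.4 ± 14.8 in DMSO IC, 3.73 ± 0.816 in iBET Ova and 16.6 ± 4.67 in iBET IC cells. It rose with IC in DMSO cells (log2 fold change 1.45, edgeR adjusted p = 0.00216, and 0.0733 within mice A and B) and in iBET cells (2.15, edgeR adjusted p = 0.000238), and fell with iBET in Ova cells (-1.43, edgeR adjusted p = 0.000899). Its fall with iBET in IC cells (-0.73, edgeR adjusted p = 0.0402) was lost under 10 of 16 alternatives, among them leaving out mouse A, B, C or E, with adjusted p values up to 0.149. Il1a, an alarmin released on membrane rupture, rose with IC by 1.43 in DMSO cells and fell with iBET by 1.17 in Ova cells. Il18 was low, at 1.07 ± 0.330 CPM in DMSO Ova cells, with a log2 fold change of -0.65 with iBET (edgeR adjusted p = 0.057, and 0.0499 with the mouse as a block).

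Other cell death genes moved both ways, 3 rising and 5 falling of 9 tested with iBET in Ova cells (median log2 fold change -0.17). Mlkl, the pore protein of necroptosis, fell by 1.03 on the log2 scale, and Casp8, an apical caspase of apoptosis, by 0.54. Gsdme, a gasdermin cut by caspase-3 and listed under the older symbol Dfna5, fell with iBET in Ova cells from 9.09 ± 1.09 to 4.95 ± 0.620 CPM (log2 fold change -0.88, edgeR adjusted p = 9.26e-07). It also fell with IC in DMSO cells, to 4.22 ± 0.421 CPM (-1.11, edgeR adjusted p = 1.04e-06). Ninj1, which ruptures the plasma membrane after gasdermin pores open, rose with iBET from 47.9 ± 10.6 to 63.6 ± 7.28 CPM in Ova cells (log2 fold change 0.41, edgeR adjusted p = 0.00823) and with IC in DMSO cells to 105 ± 9.22 CPM (1.13, edgeR adjusted p = 4.43e-06). The Ninj1 rise with iBET was lost within mice A and B (0.11, adjusted p = 0.558).

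Of 7 transcription factors known to act at inflammasome genes, 5 fell and 0 rose with iBET in Ova cells (median log2 fold change -0.54). Spi1, which encodes PU.1, fell from 193 ± 11.1 to 32.3 ± 4.10 CPM (log2 fold change -2.57, edgeR adjusted p = 2.66e-14). Irf2, a factor that Gsdmd transcription is known to need, fell by 1.14, and the NF-κB subunit Rela by 0.54 on the log2 scale. With iBET in IC cells 6 of 11 other sensors, 9 of 11 activating factors and 4 of 5 restraining factors fell. So did 2 of 3 cytokines, 4 of 9 other cell death genes and 5 of 7 transcription factors, where 29.0% of all genes tested fell. Those that rose were 1 other sensor, 1 activating factor and 4 other cell death genes, where 27.1% of all genes tested rose. For IC against Ova in DMSO cells 0 of the 7 transcription factors passed the threshold with edgeR, and 3 did with the mouse as a block. In that comparison 4 of 11 other sensors fell (8 with the block), among them Naip5 (-0.55, edgeR adjusted p = 0.000894), Naip6 (-0.58, edgeR adjusted p = 0.00555) and Nlrp1a (-0.60, edgeR adjusted p = 0.000797). Of all genes tested 10.7% fell there, and with the block 38.1% passed in either direction. In mice A and B alone 0 of these 11 sensors passed, and in the other 3 mice 6 fell. In these sets 4.00% and 27.2% of all genes tested passed in either direction.

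**Figure D5:**
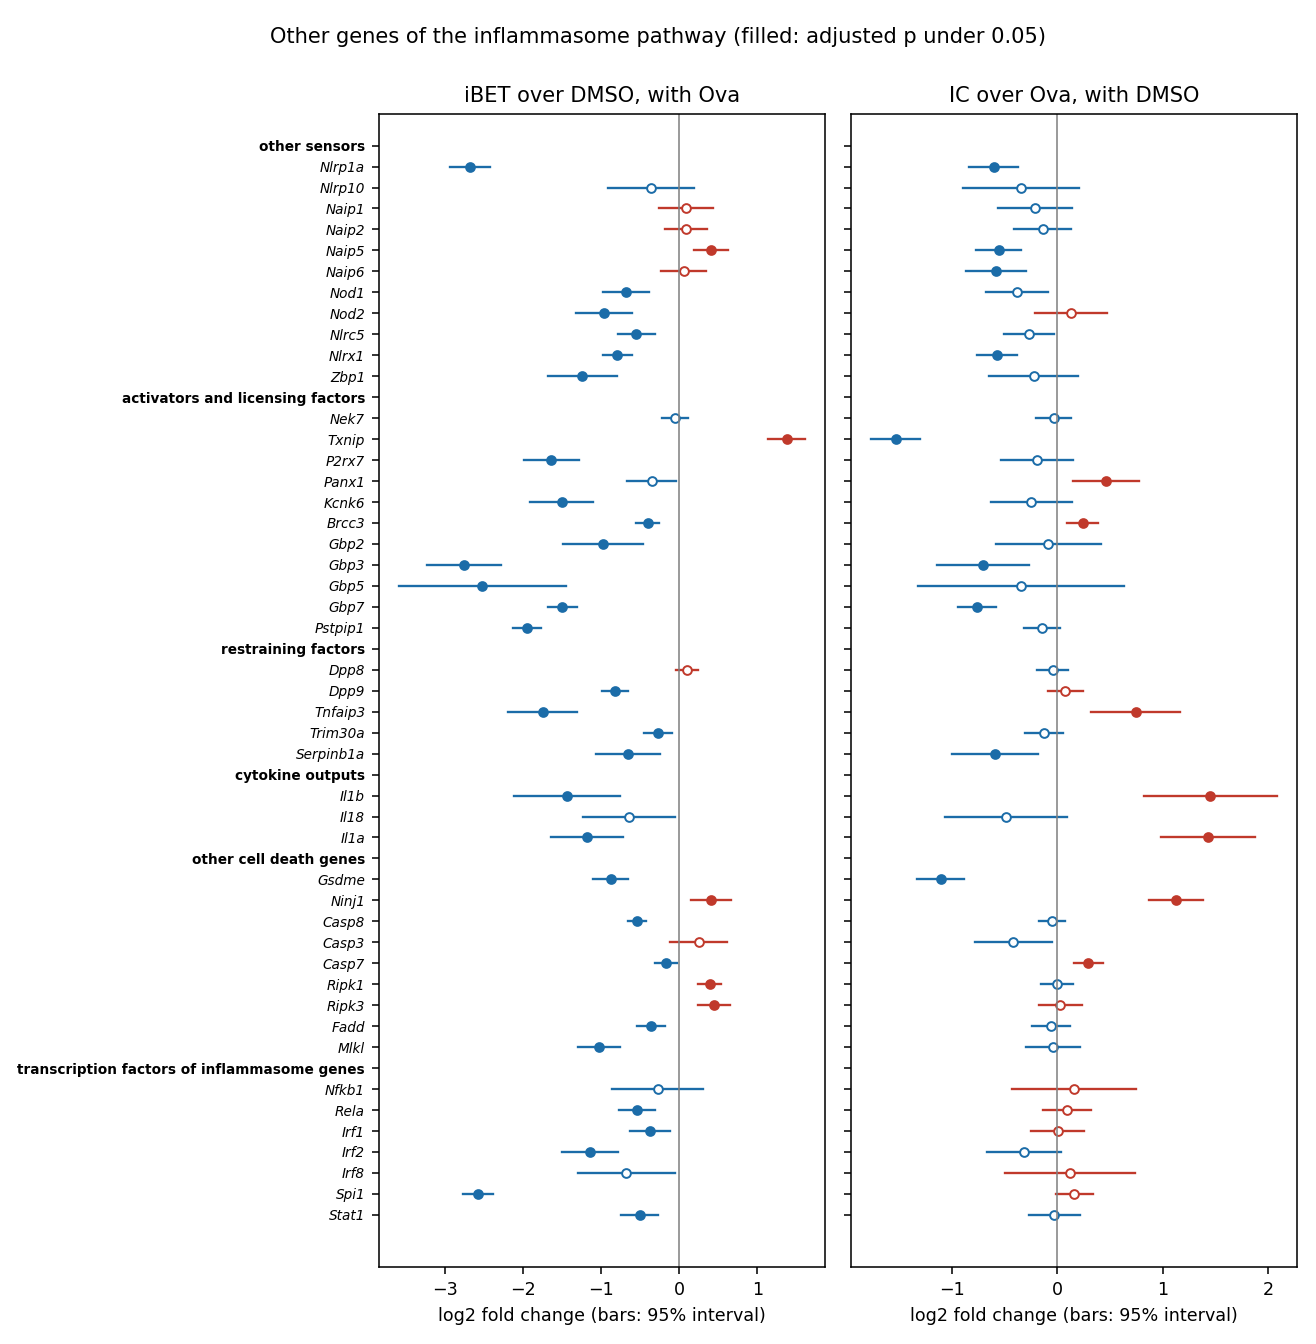
Log2 fold changes with 95% intervals of the tested pathway genes, by list, for iBET over DMSO in Ova cells on the left and IC over Ova in DMSO cells on the right; blue is below 0, red above 0, and filled circles passed an adjusted p of 0.05. On the left most filled circles are blue, with Spi1, Nlrp1a, Gbp3 and Gbp5 below -2 and Txnip above 1, and on the right Il1b, Il1a and Ninj1 lie above 1.

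Markers of cell types moved beside these changes. Of all genes tested 28.9% fell with iBET in Ova cells and 29.0% in IC cells. With the mouse as a block 68.7% and 68% passed in either direction. Of 8 macrophage or monocyte markers 5 fell with iBET in Ova cells, namely C1qa, C1qb, C1qc, Csf1r and Cd14 (6 with the mouse as a block), and 3 in IC cells, namely C1qb, Csf1r and Cd14 (5 with the block), and 0 rose. Their summed level was 1244 to 1844 CPM in DMSO Ova, 1352 to 1864 in DMSO IC, 801 to 1149 in iBET Ova and 854 to 1299 CPM in iBET IC libraries, and none was at 0. Csf1r, the receptor for M-CSF, fell by 0.83 on the log2 scale in Ova cells, and Adgre1 (F4/80) had a log2 fold change of -0.17 (edgeR adjusted p = 0.104, and 0.00542 with the block). Of 8 dendritic cell markers 2 fell in Ova cells, Ciita and Flt3 (4 with the block), and 1 rose, Csf2rb, a subunit of the GM-CSF receptor (2 with the block). Flt3 was low, at means of 3.03 CPM in DMSO Ova and 0.242 CPM in iBET Ova cells. It passed the filter through its DMSO libraries, and no iBET Ova library held more than 0.408 CPM of it. Itgax (CD11c) did not pass the threshold in Ova cells, and Cd74 passed as higher with the block alone (log2 fold change 0.25, edgeR adjusted p = 0.429, and 0.000574 with the block). Dpp4 and Zbtb46 passed as lower with the block alone (log2 fold changes -1.34 and -0.25 with the block, edgeR adjusted p = 1.27e-09 and 0.00348). The median log2 fold change of the list was -0.16. The sum of these markers ran from 6763 to 8944 CPM in DMSO Ova to 8766 to 10918 CPM in iBET Ova libraries. Csf2rb and Cd74 made up a large part of it. Their means were 2713 and 2661 CPM in DMSO Ova and 4282 and 3169 CPM in iBET Ova cells. Of 7 tested neutrophil markers Mpo rose and Cxcr2 fell with iBET in either stimulation, both from means under 3 CPM in Ova cells. Mpo had a mean of 0.0331 CPM in DMSO Ova cells and at most 2 reads in a DMSO library. It passed the filter through its iBET libraries, at means of 0.448 CPM with Ova and 0.654 CPM with IC. Camp and Elane did not pass the filter, and the sum of the list was 12.8 to 56.7 CPM. None of 7 lymphocyte markers passed the filter, and their sums were at most 0.801 CPM, those of 4 erythroid markers at most 15.6 CPM, and of 5 basophil, mast cell or eosinophil markers 15.2 to 83.9 CPM. The part of these cell types in the changes of the inflammasome genes was not tested.

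For 3 genes the most alike patterns over the 20 libraries were sought among 9774 well covered genes, by Pearson's r of log2 CPM. Nlrp3 was followed most closely by Ccr1, a chemokine receptor (r = 0.990), Psd4 (r = 0.989) and C130050O18Rik (r = 0.989). Casp1 was followed by Zfp874a (r = 0.979), the guanylate binding protein gene Gbp6 (r = 0.972) and Creg2 (r = 0.967), and Gsdmd by Sh2d1b1 (r = 0.989), Dok2 (r = 0.986) and Tns4 (r = 0.986). Libraries share mice and treatments, and the DMSO and iBET libraries form 2 clusters, so these values are a description and reflect that gap first. Within the 10 DMSO libraries r was 0.662 for Ccr1 and Nlrp3, 0.779 for Zfp874a and Casp1 and 0.932 for Sh2d1b1 and Gsdmd, and within the 10 iBET libraries 0.939, 0.922 and 0.902. The other partners of Nlrp3 were less alike within treatments, with r of 0.616 in DMSO and 0.511 in iBET libraries for Psd4, and 0.599 and 0.602 for C130050O18Rik. Those of Casp1 and Gsdmd ran from 0.714 for Creg2 in DMSO to 0.885 for Dok2 in DMSO libraries. The measure takes no account of the size of a change. Dok2, which encodes an adaptor of tyrosine kinases, fell 9.997-fold with iBET in Ova cells, against 1.98-fold for Gsdmd.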

How the data were processed

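Bulk RNA-seq of BMDCs was read in 20 libraries. The authors trimmed the reads, used HISAT2 on mm10, counted reads per gene (featureCounts) and deposited raw counts, and the annotation and strand setting are not given in the sources used here. A second deposited table holds signal values, the counts divided by DESeq2's size factor. Counts were filtered with filterByExpr, scaled with TMM and tested with edgeR 4.0.16 in R 4.3.3 by group, in all 20 libraries. The median library held 21764663 counts, and precision is given as the SD over mice. The mouse label pairs the libraries: deviations of the same mouse correlated at 0.307 or more in 30 pairs. Libraries of the same group differed beyond counting error (chi-square per degree of freedom at least 12.8). Members and lists were chosen with earlier results of these data known.

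Genes named are the 9 members, from each pathway list the 3 with the largest change with iBET in Ova cells past the threshold and a mean of at least 100 counts, and Il1b, Il18, the Naip genes, Nek7, Ninj1 and Casp12 for their role, besides genes named after their values were seen. Alternatives were DESeq2 1.42.0 (also with the mouse as block), the block in edgeR, surrogate variables (sva 3.50.0), other scalings, no filter, the 10 libraries compared, limma 3.58.1 on log2 of the deposited values with a pseudocount of 1, each mouse left out, and a log2 fold change of at least 1. The code of the tests was run on simulated data without a mouse effect and with few changed genes. These data differ in both respects, so that run does not show how the tests hold here.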

Additional observations from a re-analysis of the deposited data

Results flagged for a closer look

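In 1 of 36 sets of 5 libraries (9 genes in 4 groups) a value stood apart by Dixon's test, where chance alone flags about 1 in 20. Gsdmd in the iBET IC library of mouse D was 36.2 CPM, against 30.1 to 31.3 CPM in the other 4 mice. Mouse D was also highest for Gsdmd in DMSO Ova cells. Without mouse D the log2 fold change of Gsdmd with iBET in IC cells was -0.80 (edgeR adjusted p = 9.36e-08).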

How the results depend on the processing

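Leaving out each mouse in turn gave 7 to 8 inflammasome genes called for iBET with Ova, 8 each time for iBET with IC, 2 to 3 for IC in DMSO cells, 0 each time for IC in iBET cells and 0 each time for the interaction. Asking also for a log2 fold change of at least 1 left 5 genes for iBET with Ova and 5 for iBET with IC (4 each without Mefv). All of these were lower, as were 10.0% and 9.68% of all genes tested at this cut. For IC in DMSO cells it left 0, where 1.48% of all genes passed. For IC in iBET cells 3 genes were called with library size only and 1 in limma on the deposited values. For IC in DMSO cells 0 were called within mice A and B, where 4.00% of all genes were. With the mouse as a replicate block the counts stayed at 8, 8, 3, 0 and 0, and the block changed no call of the 9 genes. Among the named pathway genes it added calls for Gbp3, Casp8, Spi1, Irf2, Il18, Naip2 and Naip6 in at least 1 comparison and changed no other call, and it also added calls for cell type markers. Of 708 values of the 9 genes under alternatives, 10 lost and 5 gained a call, and the other 693 stayed on their side of the threshold, 16 of them uncalled values that took the other sign. None of the called values changed sign. The log2 fold change of Nlrp3 with iBET ran from -3.46 to -3.21 with Ova, and that of Pycard from -1.46 to -1.17. Over all genes the block called 4755 for IC in DMSO cells (2531 without it), 3601 for IC in iBET cells (1474 without it) and 102 for the interaction (5 without it). Without single mice these ran 1180 to 2477, 643 to 1177 and 0 to 2. The block with DESeq2 called 4611, 3594 and 184, surrogate variables 2777 and 34 for IC in iBET cells and the interaction, library size only 2343 for IC in iBET cells, and DESeq2 25 for the interaction. For mice A and B alone the counts were 500, 296 and 0, and in the other 3 mice 13 for the interaction. With library size only, 18.3% of the genes called for IC in DMSO cells were higher, against 47.3% with TMM, and in iBET cells 13.4% against 43.9%. The cause of these shifts was not tested. With only the 10 libraries compared Mefv was not tested. Depth limits Mefv, with at most 29 reads in a library, and Il18.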
